A study of Mus musculus with 12 samples.

Results

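The 10 genes described here serve cell-cell adhesion, and their levels are given in luminal and basal cells of the mouse mammary gland at 3 stages. They are the classical cadherins Cdh1 (E-cadherin) and Cdh3 (P-cadherin), the desmosomal cadherins Dsg2, Dsg3, Dsc2 and Dsc3, the desmosomal plaque genes Jup (plakoglobin), Dsp (desmoplakin) and Pkp1 (plakophilin 1), and Perp, a desmosome-associated membrane protein gene. They were chosen by name. All 10 were found by their Entrez gene identifier among the 27179 genes of the deposited count table, and all 10 were among the 15969 genes that passed the filter on low counts. Dsc3 passed it through its basal libraries alone and Dsg3 through the basal virgin pair alone. Differences of other groups from those groups are in part fixed by the filter and are given as a description. Where the counts of called genes below include such differences, this is said. Cells were sorted by flow cytometry from the glands of wild type FVB/N females, either virgin, at day 18.5 of pregnancy or at day 2 of lactation, and received no treatment. Neither the age of the mice nor the surface markers of the sort is stated in the labels. Each of the 6 groups, called luminal or basal and virgin, pregnant or lactating below, holds 2 libraries, and the series' design text gives 2 mice for every stage. All luminal libraries were read in lane 1 and all basal libraries in lane 2, so that cell type and lane cannot be told apart.

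Classical cadherins join neighbouring cells at adherens junctions, where their inner ends bind catenins and, through them, actin. Desmosomes are a stronger kind of contact: desmogleins and desmocollins cross the membrane, plakoglobin and plakophilins bind their tails, and desmoplakin ties the plaque to keratin filaments. The mammary epithelium has an inner layer of luminal cells, which make milk, and an outer layer of contractile basal cells. E-cadherin is known as the cadherin of the luminal layer and P-cadherin as that of the basal layer.

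Library totals ran from 20015386 to 24723827 counts. Levels are given as CPM, counts brought to a common library total after scaling by the trimmed mean of M values (TMM), and levels of different genes are compared only per length, as RPKM with the deposited gene lengths. The summed level of 8 basal markers was 64.5 to 406 CPM in luminal libraries and 16200 to 48200 CPM in basal libraries. The sum of 8 luminal markers was 4260 to 13500 CPM in luminal libraries and 1140 to 1700 CPM in basal libraries, so that each label had its own markers. The 8 milk protein genes took 0.586 to 0.734% of the counts of luminal virgin libraries, 16.3 to 19% of luminal pregnant libraries and 45.2 to 46.6% of luminal lactating libraries. The scaling therefore mattered for luminal cells: with library size alone, the median log2 change of all genes tested from pregnancy to lactation in luminal cells was -0.851, against 0 with TMM. In bulk libraries such as these, fewer cells with a transcript and less of it per cell cannot be told apart.

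Across the 10 genes, the called luminal changes between stages were falls except for Cdh3, and the called basal changes went both ways. In luminal cells from virgin to pregnant, Dsp, Pkp1, Dsc2 and Perp fell and Cdh3 rose from a very low level, which is 5 of 10 genes called by edgeR's quasi-likelihood test at an adjusted p (Benjamini-Hochberg over all genes tested) below 0.05. The share called among all genes tested in that comparison was 45.9%, with 21.8% higher and 24.1% lower, so that the share of members called was near that of all genes. From pregnant to lactating, luminal Cdh1, Dsc2, Pkp1, Jup and Dsg2 fell, again 5 of 10, with 0 higher, against 48.3% of all genes tested, 23.7% higher and 24.6% lower, again a near share. Between luminal virgin and luminal lactating libraries, 7 of 10 were lower and 0 higher, against 60.2% of all genes, 26.7% higher and 33.5% lower. The median log2 change of the 10 genes in these comparisons was -0.39, -0.85 and -0.98, the last with the luminal lactating Dsg3 count of 0 replaced by 3 counts, beside medians over all genes tested of -0.039, 0 and -0.15. The second median keeps the fitted Dsg3 change of -3.27 (SE 2.44), which rests on 2 counts against 0. With library size alone, the first comparison gave 7 genes lower and 0 higher, as against 4 lower and 1 higher with TMM, and the second gave 8 lower.

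In basal cells from virgin to pregnant, Perp and Cdh3 rose and Dsg3, Dsc2 and Dsg2 fell, 5 of 10, against 30% of all genes tested, 15.6% higher and 14.4% lower. From pregnant to lactating, Dsp and Dsg2 rose and Cdh1, Dsc2 and Dsc3 fell, 5 of 10, against 33.1% of all genes tested, 15.7% higher and 17.4% lower. Between basal virgin and basal lactating libraries, 9 of 10 were called, 5 higher and 4 lower, against 47.5% of all genes, 23.7% higher and 23.7% lower, and Pkp1, at a log2 change of -0.08, was not. Dsg3 is among the genes called lower than in virgins at both later stages, and it passed the filter through the basal virgin pair alone. Its place in both of those counts is thus in part fixed by the filter. The median log2 changes of the 10 genes were 0.06, 0.2 and 0.15, close to the medians over all genes of 0.0039, 0.0082 and 0.00094. Beside the basal rises, the summed level of 4 adipocyte markers in basal libraries went from 1.36 to 2.57 CPM in virgins to 14.6 to 62.9 CPM in pregnancy and 41.6 to 59.8 CPM in lactation, and the 7 fibroblast markers from 222 to 306 CPM to 675 to 862 CPM and 432 to 497 CPM. Their part in these changes was not tested. The 9 calls came to between 6 and 9 when single libraries were left out (6 without basal virgin replicate 2 or basal lactating replicate 1), and to 7 with DESeq2.

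**Figure D1:**
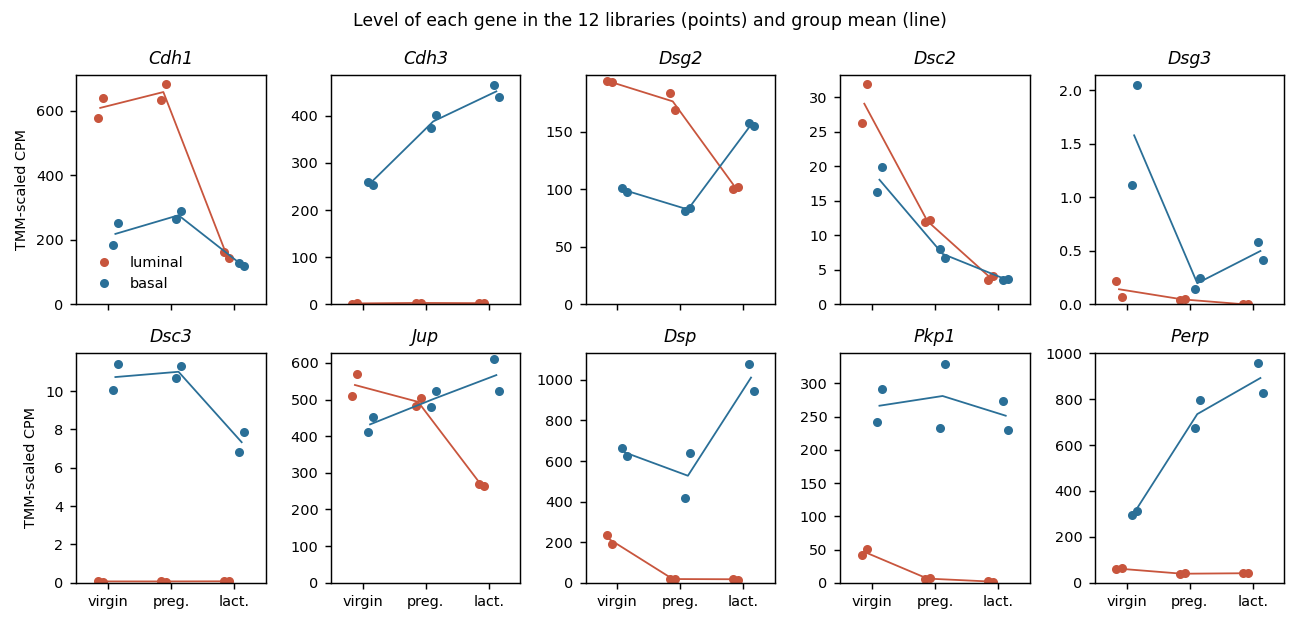
TMM-scaled CPM (linear axes from 0, own scale in each panel) of the 10 genes in luminal (red) and basal (blue) libraries at the virgin, pregnant (preg.) and lactating (lact.) stages. Points are single libraries and lines join the means of the 2 libraries of a group. Luminal Cdh1 drops from 633 and 685 CPM in pregnancy to 164 and 144 CPM in lactation, while basal Perp climbs from 296 and 313 CPM in virgins to 956 and 829 CPM in lactation.

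Cdh1 (Entrez 12550) and Cdh3 (Entrez 12560) are neighbours on chromosome 8 of GRCm38.p6, at 106603350 to 106670247 and 106510852 to 106556911, with 46.4 kb between them. Cdh1 codes for the classical cadherin of most epithelia. Luminal libraries held 578 and 641 CPM of Cdh1 in virgins, 633 and 685 CPM in pregnancy, and 164 and 144 CPM in lactation. Basal libraries held 185 and 252 CPM, then 264 and 289 CPM, then 127 and 118 CPM. Both lactating groups lay below every virgin and pregnant library of their own cell type. From pregnancy to lactation Cdh1 fell by 2.10 on the log2 scale in luminal cells (SE 0.15, adjusted p = 3.77e-07) and by 1.17 in basal cells (SE 0.14, adjusted p = 0.000141). The luminal fall was the larger, with a difference between the changes of -0.93 (SE 0.20, adjusted p = 0.00338). Neither cell type passed the test from virgin to pregnant, with log2 changes of 0.11 (SE 0.14) and 0.34 (SE 0.14). Without basal virgin replicate 2 the basal change was 0.57 with an adjusted p of 0.0128, and with library size alone the luminal change was -0.39, beside an all-gene median of -0.543 under that scaling.

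The distance in Cdh1 between the layers was smaller in lactation than in pregnancy. The basal minus luminal log2 difference was -1.48 in virgins (SE 0.15, adjusted p = 1.86e-06) and -1.25 in pregnancy (SE 0.14, adjusted p = 5.62e-06). In lactation it was -0.33 (SE 0.14) and missed the threshold with an adjusted p of 0.057. With the replicate number as a block it was -0.32 with an adjusted p of 0.0154, with DESeq2 -0.36 with 0.0313, and it also passed without luminal lactating replicate 2 (0.0427), basal virgin replicate 1 (0.0223) or basal virgin replicate 2 (0.0225). With library size alone it was 0.67, so that the order of the layers in lactation depended on the scaling. The summed luminal markers in basal libraries were 9.86%, 10.8% and 33.9% of their luminal level at the virgin, pregnant and lactating stages, and luminal Cdh1 was 279%, 238% and 125% of basal Cdh1. From pregnancy to lactation those markers went from 10700 to 13500 CPM to 4260 to 4980 CPM in luminal libraries, and from 1290 to 1310 CPM to 1430 to 1700 CPM in basal libraries. The milk protein genes in basal libraries were 2.01%, 2.53% and 0.565% of their luminal level. The part of carried-over luminal cells in basal Cdh1 was not tested.

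Cdh3, whose product is the other classical cadherin of stratified epithelia, was read mainly in basal libraries. Basal libraries held 260 and 253 CPM of Cdh3 in virgins, 374 and 402 CPM in pregnancy and 464 and 439 CPM in lactation, so that the 3 basal stages did not overlap. Luminal libraries held 1.83 and 2.23 CPM, 2.96 and 3.20 CPM, and 3.13 and 2.04 CPM. In basal cells Cdh3 rose from virgin to pregnant by a log2 change of 0.60 (SE 0.12, adjusted p = 0.00235), and the lactating level was above the virgin level by 0.82 (SE 0.12, adjusted p = 0.00014). The step from pregnant to lactating, 0.22 (SE 0.12, adjusted p = 0.17), did not pass, nor did the luminal change of -0.25 (SE 0.20, adjusted p = 0.341). The difference between those changes, -0.47 (SE 0.23, adjusted p = 0.141), did not pass with TMM. It passed with library size alone (-1.27, adjusted p = 0.000353) and without the milk protein genes (-0.67, adjusted p = 0.0371). Basal cells exceeded luminal cells by log2 differences of 6.98, 6.98 and 7.45 at the 3 stages. Luminal Cdh3 was 0.79%, 0.794% and 0.573% of basal Cdh3, and the basal markers in luminal libraries were 0.489%, 1.03% and 0.218% of their basal level. The luminal rise in Cdh3 in pregnancy, 0.60 (SE 0.18, adjusted p = 0.0182), came beside a rise of the summed basal markers in luminal libraries from 64.5 to 94.7 CPM to 335 to 406 CPM, and their part in it was not tested. That call was lost without luminal virgin replicate 1 (adjusted p = 0.132) or luminal pregnant replicate 2 (adjusted p = 0.092) and with both scalings by library size.

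Per length, the balance of the 2 classical cadherins in basal cells stood further towards Cdh3 in lactation. Cdh3 made up 60.7 and 52.6% of the summed Cdh1 and Cdh3 RPKM in basal virgin libraries, 61 and 60.6% in basal pregnant libraries, and 80.1 and 80.4% in basal lactating libraries. The basal lactating libraries stood above all other basal libraries. In luminal libraries the share was 0.348 to 2.07%, highest in lactation, where Cdh1 itself was lowest.

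**Figure D2:**
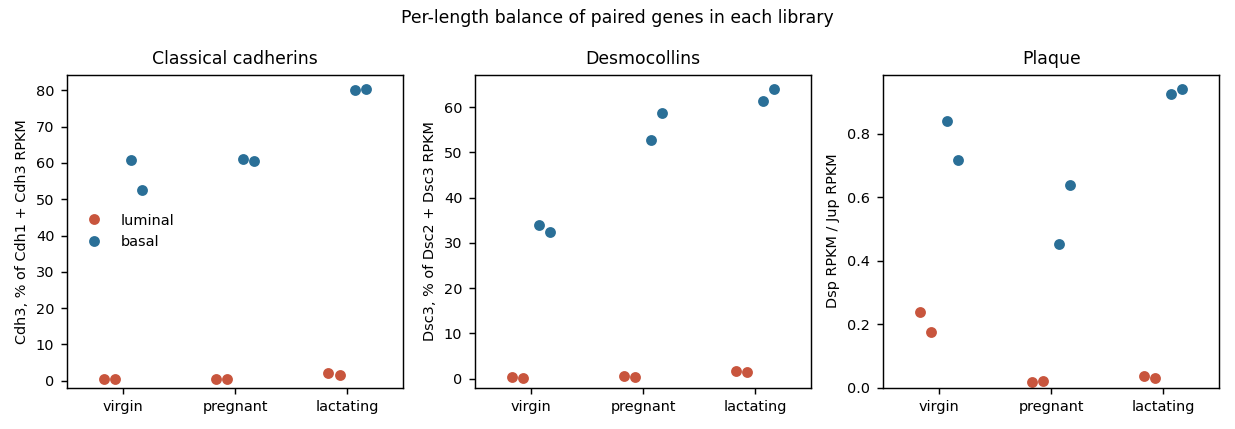
Balance of paired genes per length in each library, with luminal libraries in red and basal libraries in blue. Left, Cdh3 as a percentage of Cdh1 plus Cdh3 RPKM; centre, Dsc3 as a percentage of Dsc2 plus Dsc3 RPKM; right, the ratio of Dsp to Jup RPKM. The basal Cdh3 share reaches 80.1 and 80.4% in lactation, and the luminal ratio of Dsp to Jup drops from 0.24 and 0.177 in virgins to 0.0175 and 0.0211 in pregnancy.

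The 4 desmosomal cadherin genes lie in a cluster on chromosome 18, in the order Dsc3 (Entrez 13507), Dsc2 (13506), Dsg3 (13512) and Dsg2 (13511), with gaps of 28.2, 450.7 and 16.8 kb. Dsg2 and Dsc2 are the desmoglein and desmocollin of simple epithelia, and Dsg3 and Dsc3 are best known from the lower layers of stratified epithelia. Here Dsg2 was the leading desmosomal cadherin in every group per length, at 14.4 to 33.7 RPKM as group means, against at most 6.59 RPKM for Dsc2, 2.08 RPKM for Dsc3 and 0.384 RPKM for Dsg3.

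Dsg2 exchanged its order between the layers at lactation. Luminal libraries held 194 and 193 CPM in virgins, 184 and 169 CPM in pregnancy and 99.9 and 102 CPM in lactation. Basal libraries held 101 and 97.1 CPM, then 81.1 and 83.6 CPM, then 157 and 154 CPM. At the virgin and pregnant stages all luminal libraries were above all basal ones, and in lactation all basal libraries were above both luminal ones. From pregnancy to lactation Dsg2 fell by 0.81 on the log2 scale in luminal cells (SE 0.09, adjusted p = 1.5e-05) and rose in basal cells by 0.92 (SE 0.09, adjusted p = 3.58e-05). The difference between those changes was -1.73 (SE 0.13, adjusted p = 2.19e-06). From virgin to pregnant the luminal change of -0.13 (SE 0.09, adjusted p = 0.243) did not pass, but Dsg2 was lower with library size alone (-0.64, adjusted p = 0.00017) and without the milk protein genes (-0.37, adjusted p = 0.00785). The summed luminal markers in basal libraries were 1290 to 1310 CPM in pregnancy and 1430 to 1700 CPM in lactation, and their part in the basal rise was not tested. The basal minus luminal difference was -0.96, -1.10 and 0.63 at the 3 stages (SE 0.09 each, adjusted p = 1.17e-06, 2.4e-07 and 3.47e-05). The small basal fall in pregnancy, -0.27 (SE 0.09, adjusted p = 0.0409), was lost without the filter on low counts (adjusted p = 0.0886) and when any of 10 libraries was left out, with adjusted p up to 0.163 without basal pregnant replicate 1. Exons of Gm16090 cover 3.99% of the Dsg2 exons.

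Dsc2 declined step by step in both layers. Luminal libraries held 26.3 and 31.9 CPM, then 12 and 12.2 CPM, then 3.51 and 4.17 CPM. Basal libraries held 16.3 and 19.9 CPM, then 7.97 and 6.67 CPM, then 3.59 and 3.68 CPM, with no overlap between stages in either layer. Dsc2 fell by 1.27 (SE 0.15, adjusted p = 2.77e-05) and then by 1.65 (SE 0.19, adjusted p = 1.52e-05) on the log2 scale in luminal cells, and by 1.30 (SE 0.16, adjusted p = 9.44e-05) and then by 1.01 (SE 0.18, adjusted p = 0.00121) in basal cells. The falls differed between the layers by 0.03 in the first step (SE 0.22, adjusted p = 0.942) and by -0.64 in the second (SE 0.26, adjusted p = 0.0738), neither past the threshold with TMM. The difference in the second step passed with the replicate block (-0.64, adjusted p = 0.049), with library size without the milk protein genes (-0.84, adjusted p = 0.0266) and with library size alone (-1.44, adjusted p = 0.000512). Basal Dsc2 was below luminal Dsc2 in virgins (log2 difference -0.69, SE 0.15, adjusted p = 0.0014) and in pregnancy (-0.72, SE 0.16, adjusted p = 0.00152). In lactation the difference was -0.08 (SE 0.20, adjusted p = 0.733), and 0.91 with library size alone.

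Dsc3 was read almost only in basal cells, at 289 and 302 counts in virgins, 290 and 275 counts in pregnancy and 152 and 171 counts in lactation. Luminal libraries held 1 to 3 counts each. The basal to luminal ratio over the summed counts was 156 in pregnancy (95% counting interval 53.2 to 760) and 96.4 in lactation (26.5 to 799), intervals that cover counting error only. In virgins the log2 difference was 7.16 (SE 0.33), and 8.09 without luminal virgin replicate 1 or 6.57 without luminal virgin replicate 2. In basal cells Dsc3 was 10 and 11.4 CPM, then 10.7 and 11.3 CPM, then 6.81 and 7.86 CPM. Both lactating libraries were the lowest, and the log2 change from pregnancy was -0.59 (SE 0.18, adjusted p = 0.0261). That call was lost without any 1 of the 4 libraries compared, with adjusted p of 0.0668 to 0.153. From virgin to lactating the basal change was -0.55 (SE 0.18, adjusted p = 0.0245), a call lost without basal virgin replicate 2 (0.121) or basal lactating replicate 1 (0.153) and with DESeq2 (0.0548). The per-length share of Dsc3 in the 2 desmocollins of basal cells went from 34 and 32.4% in virgins to 52.8 and 58.6% in pregnancy and 61.3 and 64% in lactation.

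Dsg3 was scarce everywhere. Basal libraries held 32 and 54 counts in virgins, 4 and 6 in pregnancy and 13 and 9 in lactation, with no overlap between the stages. Only the basal virgin pair brought Dsg3 past the filter on low counts, so that differences from that pair are in part fixed by the filter. Luminal libraries held 6 and 2 counts, 1 and 1, and 0 and 0. The basal fall from virgin to pregnant was -2.97 on the log2 scale (SE 0.53), and the lactating minus virgin difference was -1.64 (SE 0.46), a call that was lost with DESeq2 (adjusted p = 0.0757) and without basal virgin replicate 2 (0.121) or basal lactating replicate 2 (0.102). In luminal cells the summed counts were 8 in virgins and 0 in lactation, a ratio whose exact 95% counting interval starts at 0.78 and so includes no change. That comparison missed the threshold (adjusted p = 0.062), but passed with library size alone (0.00709), without the milk protein genes (0.0301) and without luminal virgin replicate 2 (0.0396). The basal minus luminal log2 difference in virgins was 3.44 (SE 0.55), and 4.43 without luminal virgin replicate 1 or 2.84 without luminal virgin replicate 2. In pregnancy the ratio of 4.15 had a 95% counting interval of 0.884 to 38.9 and was not called, and in lactation, with 22 basal counts against 0 luminal counts, the interval of the ratio started at 3.27.

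**Figure D3:**
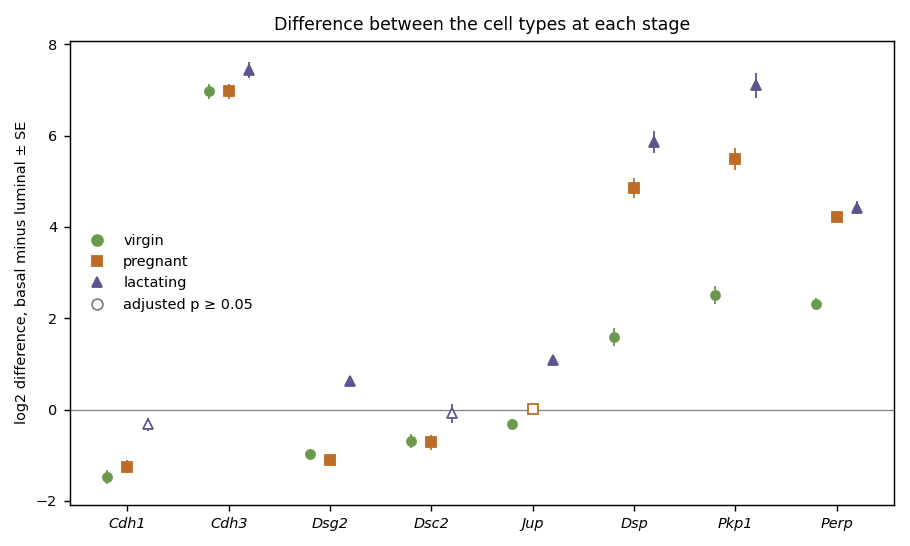
Log2 difference of basal minus luminal cells, with its SE, for 8 genes in virgin (green circles), pregnant (brown squares) and lactating (purple triangles) libraries. Open symbols missed an adjusted p of 0.05, and Dsg3 and Dsc3 are left out because luminal counts were 6 or fewer. Dsp and Pkp1 rise from 1.59 and 2.52 in virgins to 5.87 and 7.10 in lactation, and Dsg2 and Jup cross from below 0 to above 0.

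The plaque genes parted company in luminal cells. Jup (Entrez 16480, chromosome 11, 100368856 to 100397839) codes for plakoglobin, a catenin shared by adherens junctions and desmosomes. Dsp (Entrez 109620, chromosome 13, 38151294 to 38198577) codes for the linker to keratin, and Pkp1 (Entrez 18772, chromosome 1, 135871394 to 135919207) for a plakophilin that gathers desmosomal cadherins. RefSeq promoter windows were at hand for 2 of the 10 genes, Jup and Dsp. The bases upstream of each start site are shown because the 2 genes differed in luminal cells from virgin to pregnant, with log2 changes of -0.13 for Jup and -3.55 for Dsp, and capitals mark the GC box GGGCGG on either strand (GRCm38.p6, each read 5′ to 3′ on the gene's own strand).
Jup promoter, chr11:100397840-100398040, minus strand: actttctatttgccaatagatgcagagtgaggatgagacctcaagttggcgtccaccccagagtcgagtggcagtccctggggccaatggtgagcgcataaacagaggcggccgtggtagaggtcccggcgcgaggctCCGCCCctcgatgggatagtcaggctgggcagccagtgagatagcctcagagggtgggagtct
Dsp promoter, chr13:38151044-38151293, plus strand: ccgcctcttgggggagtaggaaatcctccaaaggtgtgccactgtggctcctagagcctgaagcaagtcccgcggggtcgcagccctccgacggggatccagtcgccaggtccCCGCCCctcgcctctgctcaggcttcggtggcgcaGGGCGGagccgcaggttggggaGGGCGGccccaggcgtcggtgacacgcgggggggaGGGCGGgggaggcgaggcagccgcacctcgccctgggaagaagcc
The Dsp window of 300 bases held 4 matches to GGGCGG and the Jup window 2, of which 1 lies in the shown stretch, and 35.7% of 32851 RefSeq mouse promoters hold at least 1. The other letters searched on both strands were CACCTG, the E-box bound by Snail, Slug and ZEB proteins (20.2% of promoters), TGANTCA, the AP-1 site (7.81%), and AACCNGTT, the grainyhead-like site (2.09%). The searched letters do not overlap each other. Of these, the Dsp window held 1 CACCTG, just past the start site and outside the shown bases. A match describes the letters and is not evidence of binding.

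Dsp had the largest luminal fall of the 10 genes from virgin to pregnant. Luminal libraries held 234 and 193 CPM of Dsp in virgins, 16.2 and 20.4 CPM in pregnancy and 19.2 and 15.5 CPM in lactation, and both later groups lay far below the virgin libraries and overlapped each other. The log2 change was -3.55 from virgin to pregnant (SE 0.21, adjusted p = 8.27e-08) and -0.08 from pregnant to lactating (SE 0.21, adjusted p = 0.793), the latter -0.93 with library size alone, beside an all-gene median of -0.851. Basal libraries held 662 and 623 CPM, then 418 and 637 CPM, then 1080 and 943 CPM. The pregnant pair was spread widely and overlapped the virgin pair, and the lactating pair was above all others. Basal Dsp did not pass from virgin to pregnant (-0.28, SE 0.19, adjusted p = 0.277), although it was -0.62 with an adjusted p of 0.039 without basal pregnant replicate 2, and it rose by 0.94 from pregnant to lactating (SE 0.19, adjusted p = 0.00272). The basal rise from virgin to lactating was 0.65 (SE 0.19, adjusted p = 0.0124) and was lost without basal virgin replicate 2 (0.0652) or basal lactating replicate 1 (0.086). The luminal minus basal difference in the change was -3.26 for the first step (SE 0.28, adjusted p = 4.33e-06). For the second step it was -1.02 (SE 0.28, adjusted p = 0.0138), which was lost without luminal pregnant replicate 2 (0.0569) or luminal lactating replicate 2 (0.078). Exons of Gm10129 cover 5.17% of the Dsp exons.

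Other cell types moved in the luminal libraries at the same time as Dsp. The summed level of 7 fibroblast markers went from 237 to 385 CPM in luminal virgin libraries to 52 to 74.6 CPM in pregnancy and 118 to 129 CPM in lactation, and the 7 endothelial markers went from 44.3 to 67.6 CPM to 14.6 to 15.9 CPM and 20.2 to 23.3 CPM. Their part in the falls of Dsp and Pkp1 was not tested. The 8 basal markers in luminal libraries were 0.489%, 1.03% and 0.218% of their basal level at the virgin, pregnant and lactating stages. Luminal Dsp was 33.3%, 3.47% and 1.71% of basal Dsp, and luminal Pkp1 was 17.4%, 2.23% and 0.727% of basal Pkp1. The part of carried-over basal cells in luminal Dsp and Pkp1 was not tested.

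Pkp1 fell in luminal cells at both steps. Luminal libraries held 41.9 and 51 CPM of Pkp1, then 5.02 and 7.54 CPM, then 1.99 and 1.67 CPM, with no overlap between the stages. Basal libraries held 241 and 291 CPM, 233 and 329 CPM, and 273 and 229 CPM, and the 3 basal pairs overlapped. The luminal log2 changes were -2.89 (SE 0.22, adjusted p = 5.79e-07) and -1.77 (SE 0.32, adjusted p = 0.000587), and the basal changes were 0.08 (SE 0.19, adjusted p = 0.791) and -0.16 (SE 0.19, adjusted p = 0.536). The changes differed between the layers at both steps, by -2.97 (SE 0.29, adjusted p = 1.17e-05) and -1.61 (SE 0.37, adjusted p = 0.00488). The excess of basal over luminal Pkp1 thus went from a log2 difference of 2.52 in virgins to 5.49 in pregnancy and 7.10 in lactation.

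Luminal Jup was lowest in lactation. Luminal libraries held 509 and 570 CPM of Jup in virgins, 483 and 505 CPM in pregnancy and 270 and 264 CPM in lactation. Basal libraries held 411 and 453 CPM, 480 and 522 CPM, and 610 and 523 CPM. From virgin to pregnant the luminal change of -0.13 (SE 0.12, adjusted p = 0.401) did not pass with TMM, but Jup was lower with library size alone (-0.63, adjusted p = 0.000288) and without the milk protein genes (-0.36, adjusted p = 0.0147). The luminal lactating pair lay below all other luminal libraries, and the 3 basal pairs lay close together without overlap. Jup fell by 0.89 in luminal cells from pregnancy to lactation (SE 0.12, adjusted p = 5.97e-05), against a basal log2 change of 0.18 (SE 0.12, adjusted p = 0.268), and the changes differed by -1.06 (SE 0.17, adjusted p = 0.000368). In lactation basal cells were above luminal cells by 1.09 (SE 0.12, adjusted p = 2.72e-06), while in pregnancy the difference was 0.02 (SE 0.12, adjusted p = 0.881). In virgins it was -0.32 (SE 0.12, adjusted p = 0.0304), lost without luminal virgin replicate 2 (0.197) or basal virgin replicate 1 (0.156). The basal rise from virgin to lactating, 0.39 (SE 0.12, adjusted p = 0.0158), was lost without basal virgin replicate 1 (0.097) or basal lactating replicate 1 (0.14) and with library size alone (0.199) or without the milk protein genes (0.174).

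Per length, the luminal ratio of Dsg2 to Jup varied little and that of Dsp to Jup dropped after the virgin stage. The ratio of Dsg2 to Jup RPKM was 0.292 to 0.337 in all 6 luminal libraries. The ratio of Dsp to Jup was 0.24 and 0.177 in luminal virgin libraries, 0.0175 and 0.0211 in luminal pregnant libraries and 0.0371 and 0.0305 in luminal lactating libraries. In basal libraries it was 0.454 to 0.941, lowest in pregnancy. These ratios are formed within a library and do not depend on its scaling.

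**Figure D4:**
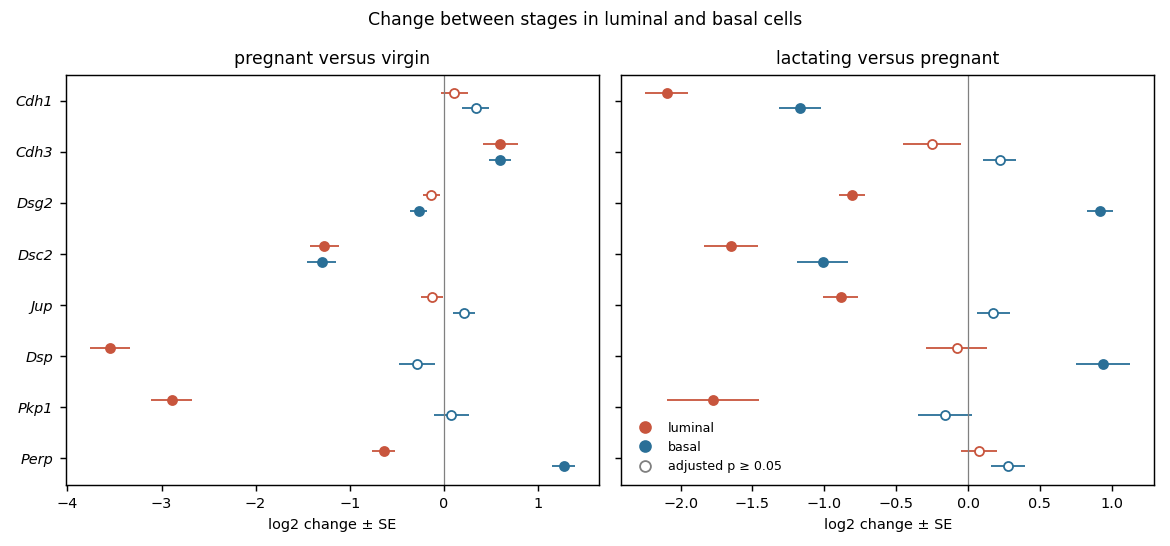
Log2 change between stages, with its SE, in luminal (red) and basal (blue) cells, from virgin to pregnant (left) and from pregnant to lactating (right), for the same 8 genes. Open symbols missed an adjusted p of 0.05. Luminal Dsp and Pkp1 lie at -3.55 and -2.89 on the left, and luminal and basal Dsg2 lie on opposite sides of 0, at -0.81 and 0.92, on the right.

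Perp (Entrez 64058, chromosome 10, 18845071 to 18857073) codes for a small membrane protein of desmosomes that is a target of p63. It was the strongest of the 10 genes per length in basal cells, at group means of 160, 387 and 469 RPKM. Basal libraries held 296 and 313 CPM in virgins, 674 and 796 CPM in pregnancy and 956 and 829 CPM in lactation. Luminal libraries held 59.7 and 63.2 CPM, then 37.5 and 41.3 CPM, then 40.7 and 42.3 CPM, so that every basal library was above every luminal one and the virgin pair was the highest luminal and the lowest basal pair. Perp rose by 1.27 in basal cells from virgin to pregnant (SE 0.12, adjusted p = 1.48e-05) and fell by 0.64 in luminal cells (SE 0.12, adjusted p = 0.000947), and the changes differed by -1.91 (SE 0.17, adjusted p = 6.19e-06). From pregnancy to lactation the changes were 0.28 in basal cells (SE 0.12, adjusted p = 0.0872) and 0.08 in luminal cells (SE 0.13, adjusted p = 0.649). With library size alone the luminal change was -0.78, beside an all-gene median of -0.851. The basal excess was 2.31, 4.22 and 4.43 on the log2 scale at the 3 stages.

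By cell type, all 10 genes differed between basal and luminal virgin cells, 6 higher and 4 lower in basal cells, against 62.8% of all genes tested, 31.5% higher and 31.2% lower. In pregnancy 8 of 10 were called, 5 higher and 3 lower, against 69.9% of all genes, 35.9% higher and 33.9% lower, and in lactation 8 of 10 were called, all higher in basal cells, against 74.6% of all genes, 39.2% higher and 35.4% lower. Dsc3 at each stage, and Dsg3 in virgins and lactation, are among the genes counted as higher, and both passed the filter through basal libraries alone. The count of 8 in lactation became 9, with Cdh1 lower, with DESeq2 or the replicate block, and 10, all higher, with library size alone. The median log2 difference of the 10 genes was 1.95, 3.08 and 3.28, the last with the luminal Dsg3 count of 0 replaced by 3 counts, beside all-gene medians of -0.014, 0.024 and 0.08. Dsc3 and Dsg3 are part of these medians, which are thus also in part fixed by the filter. The stage change of 3 of 10 genes differed between the cell types from virgin to pregnant, with the luminal change the lower in all 3, against 30.7% of all genes tested, 14% with the luminal change higher and 16.7% with it lower. From pregnant to lactating 5 of 10 differed, with the luminal change the lower in all 5, against 36.2%, 18.3% higher and 18% lower. With library size alone those counts were 5 and 8.

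The order of the genes per length differed between the layers. In luminal virgin and pregnant cells Cdh1 led, at 138 and 149 RPKM, with Jup next at 108 and 98.6 RPKM. In luminal lactating cells Jup led at 53.3 RPKM and Cdh1 followed at 34.9 RPKM, and the ranges of the 2 libraries did not overlap between these neighbours. In basal cells Perp led throughout, Jup and Cdh3 followed with overlapping ranges in pregnancy and lactation, and in virgins Dsp, Cdh3, Pkp1 and Cdh1 followed Jup, with the ranges of neighbours overlapping at 67, 64.2, 59.4 and 49.5 RPKM. Dsp climbed to 105 RPKM in basal lactating cells, overlapping Cdh3 at 113 RPKM, while Cdh1 dropped to 27.9 RPKM, overlapping Dsg2 at 27.2 RPKM.

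Among other desmosome genes, Ppl and Pkp3 moved in opposite directions in the layers from pregnant to lactating, and Pkp2 fell in both. Of 9 listed, 5 were tested (Dsc1, Pkp2, Pkp3, Ppl and Evpl), and the others, Dsg1a, Dsg1b, Dsg1c and Dsg4, were too low. From pregnant to lactating 4 of the 5 fell in luminal cells (Ppl, Pkp3, Evpl and Pkp2) and 0 rose, against 24.6% of all genes lower and 23.7% higher, with a median log2 change of -1.24 beside 0 over all genes. In basal cells Ppl and Pkp3 rose and Pkp2 fell (-3.44, SE 0.30), against 15.7% of all genes higher and 17.4% lower. Ppl, which codes for periplakin, a relative of desmoplakin, fell by 3.61 on the log2 scale in luminal cells (SE 0.15, adjusted p = 1.26e-08), from a mean of 323 ± 33 CPM to 26.4 ± 2 CPM (SD, n = 2), and rose in basal cells by 1.01 (SE 0.14, adjusted p = 0.000259), from 57.9 ± 5.5 to 117 ± 1.8 CPM. The difference between its changes was -4.63 (SE 0.20, adjusted p = 2.91e-07). Pkp3, a plakophilin of most epithelia, fell by 1.87 in luminal cells (SE 0.13) and rose in basal cells by 0.45 (SE 0.13). Pkp2, the plakophilin of simple epithelia, was the luminal counterpart of Pkp1: basal cells were lower by log2 differences of -4.94, -4.74 and -7.72 at the 3 stages, as 1.6 ± 0.29, 2.99 ± 0.73 and 0.273 ± 0.069 CPM in basal cells against 49.5 ± 1.2, 80.3 ± 1.9 and 58.4 ± 5.7 CPM in luminal cells (SD, n = 2). The counts of calls from pregnant to lactating were the same under each scaling tried.

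**Figure D5:**
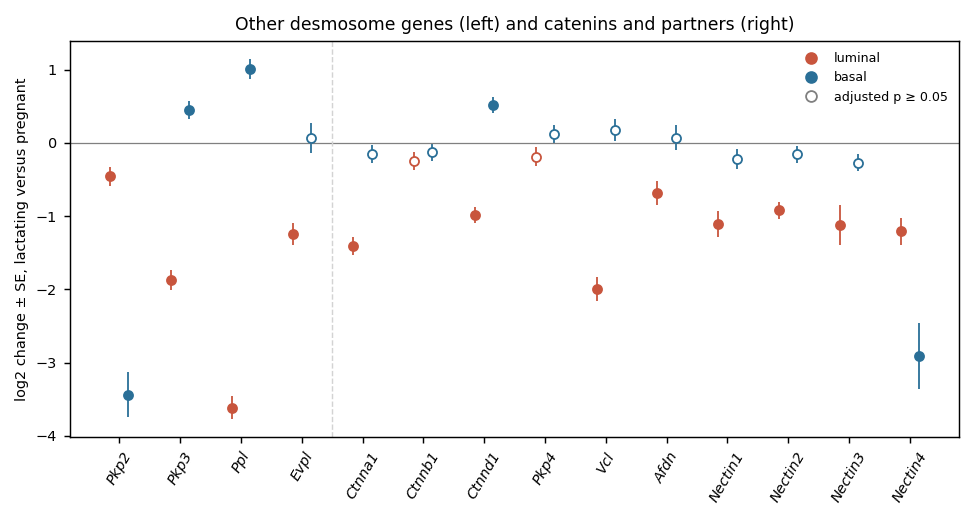
Log2 change from pregnant to lactating, with its SE, of 4 other desmosome genes (left of the dashed line) and of the 10 catenins and partners tested (right), in luminal (red) and basal (blue) cells. Open symbols missed an adjusted p of 0.05, and Dsc1 is left out because its luminal libraries were at 0. Luminal Ppl lies at -3.61 and luminal Vcl at -1.99, while basal Ppl lies at 1.01.

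Catenins and other adherens junction partners of the cadherins were mostly lower in luminal lactating cells. Of 11 listed, 10 were tested (Ctnna2 was not). From pregnant to lactating 8 of the 10 fell in luminal cells and 0 rose, against 24.6% of all genes lower and 23.7% higher, with a median log2 change of -1.05 beside 0 over all genes. Between luminal virgin and lactating cells all 10 were lower, against 33.5% of all genes lower and 26.7% higher. Vcl (vinculin) fell by 1.99 (SE 0.16, adjusted p = 1.18e-06), Ctnna1 (alpha-catenin) by 1.41 (SE 0.12, adjusted p = 2.21e-06) and Nectin4, another adhesion receptor, by 1.21 (SE 0.19, adjusted p = 0.000171). Ctnnb1 (beta-catenin) was at -0.24 (SE 0.12, adjusted p = 0.126) and Pkp4 at -0.19 (SE 0.13, adjusted p = 0.249). In basal cells 1 of the 10 rose in that step (Ctnnd1, p120-catenin, 0.52, SE 0.11, adjusted p = 0.00382) and 1 fell (Nectin4, -2.91, SE 0.45, adjusted p = 0.000546), against 15.7% of all genes higher and 17.4% lower. Between virgin and lactating basal cells 4 were higher and 2 lower, against 23.7% of all genes each way, a split that became 1 higher and 5 lower with library size alone.

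The other cadherins were mostly higher in basal than in luminal cells. Of 8 listed, 7 were tested (Cdh16 was not), and 6 were higher in basal than in luminal cells in virgins and all 7 in pregnancy and lactation, against 31.5%, 35.9% and 39.2% of all genes tested. Cdh4 and Cdh6 are among these genes, and their luminal counts summed to at most 9 in any group. Both passed the filter on low counts through basal libraries alone, so that their place in these counts is in part fixed by the filter. The count in lactation was 6 with DESeq2 or the replicate block. Cdh17 was the gene not called in virgins, at 3.52 ± 1.9 CPM in luminal and 2.26 ± 0.15 CPM in basal cells (SD, n = 2). In luminal cells 5 of the 7 fell from virgin to pregnant and 0 rose, against 24.1% of all genes lower and 21.8% higher. Their median log2 change was -1.5 for all 7, beside -0.039 over all genes. Luminal Cdh17 changed by -4.6 (SE 0.57, adjusted p = 3.6e-05), from summed counts of 205 to 6, so that its size is uncertain. Cdh2, which codes for N-cadherin, rose in basal cells by 1.29 from virgin to pregnant (SE 0.19, adjusted p = 0.000368) and by 0.97 from pregnant to lactating (SE 0.18, adjusted p = 0.00189). Cdh13 (T-cadherin) rose by 1.70 in the first of these steps (SE 0.11, adjusted p = 1.31e-06). The 7 fibroblast markers in basal libraries went from 222 to 306 CPM in virgins to 675 to 862 CPM in pregnancy and 432 to 497 CPM in lactation, and their part in these rises was not tested. The endothelial cadherin Cdh5 was also among those higher in basal cells, at 51.3 ± 18 CPM in basal virgins against 10.9 ± 4 CPM in luminal virgins (SD, n = 2), and the 7 endothelial markers summed to 187 to 304 CPM in basal virgin libraries.

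Of 12 transcription factors with known links to cadherin or desmosome genes, Trp63 and Snai2 were far higher in basal cells at every stage, by log2 differences of 8.42, 7.51 and 8.18 for Trp63 and 7.14, 8.12 and 7.39 for Snai2. Trp63 codes for p63, the master regulator of basal epithelium, and Snai2 for Slug, a repressor known to act on Cdh1. Snai2 rose in basal cells by 1.4 from virgin to pregnant (SE 0.15, adjusted p = 3.32e-05), when basal Cdh1 did not pass the test, and fell by 0.74 from pregnant to lactating (SE 0.15, adjusted p = 0.00233), when basal Cdh1 fell. In luminal cells Snai2 did not pass in either step (0.42, SE 0.49, and -0.01, SE 0.56). Luminal counts summed over the 2 libraries were only 18, 18 and 11 for Snai2 and 42, 61 and 36 for Trp63 at the 3 stages. The size of the luminal changes of Snai2 and of both differences from basal cells is therefore uncertain. Snai1 (Snail) rose in luminal cells by 1.27 from pregnant to lactating (SE 0.22, adjusted p = 0.000445). Its luminal level was 9.55 ± 0.087 CPM in virgins, 5.36 ± 1.1 CPM in pregnancy and 12.9 ± 3 CPM in lactation (SD, n = 2). Between luminal virgin and lactating cells 0 of the 12 factors were higher and 4 lower, against 26.7% of all genes higher and 33.5% lower. With DESeq2 1 was higher and 4 lower. Zeb1 (-1.6, SE 0.45), Zeb2 (-1.72, SE 0.55) and Ovol2 (-1.57, SE 0.42) were among those lower. From virgin to pregnant Zeb1 (-1.18, SE 0.38) and Zeb2 (-1.93, SE 0.50) fell in luminal cells, and Zeb2 fell in basal cells (-1.49, SE 0.31). Luminal counts summed over the 2 libraries were only 80, 26 and 12 for Zeb1 and 73, 14 and 10 for Zeb2 at the 3 stages. Grhl1, a grainyhead-like factor, was lower in basal cells by -2.32, -3.36 and -5.07 at the 3 stages. In all, 1 of the 12 was higher (Snai1) and 2 lower (Ovol1 and Ovol2) in luminal cells from pregnant to lactating, against 23.7% of all genes higher and 24.6% lower. With library size alone 0 were higher and 6 lower.

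As a description over the 12 libraries, the genes most like each member were named by Pearson's r of log2 CPM among 4594 well-expressed genes. The libraries share 6 groups and 2 cell types, so that high values arise for any pair of genes with the same cell type. For Cdh3 they were Tpm2 (r = 0.996), Tiparp (0.996) and Krt5 (0.995), and for Cdh1 they were Gm6548 (0.985), Eef1a1 (0.979) and Ets2 (0.978). The single nearest gene was Mme for Dsp (0.993), Dlg3 for Dsg2 (0.939), Tra2b for Dsg3 (0.94), Cdk4 for Dsc2 (0.944), Col14a1 for Dsc3 (0.996), Gadd45a for Jup (0.972), Nucb1 for Pkp1 (0.995) and Eogt for Perp (0.997). Dsg3, whose nearest gene was Tra2b, was read at only 0 to 54 counts.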

How the data were processed

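The deposited table holds raw read counts per Entrez gene for 12 libraries, which the authors did not normalise, and the authors deposited a length for each gene beside them. The submitters' processing notes list CASAVA 1.8.2, Subread 1.4.4, featureCounts and 2 names of the mouse build (GRCm38, mm10) but not their order or use. Whether counting used strand is not given in the sources used here, so reads of overlapping antisense genes cannot be told apart. The 12 deposited count files, 1 for each library, held the counts of the table with 0 differences. RefSeq gave a symbol (GRCm38.p6) to 25275 identifiers.

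Here, genes were filtered with edgeR 4.0.16 (filterByExpr, minimum count 10), scaled by TMM and fitted in 1 quasi-likelihood model of 6 group means over all 12 libraries, in R 4.3.3. P-values were adjusted by Benjamini-Hochberg over the 15969 genes that passed, and a call needs an adjusted p below 0.05. CPM and RPKM were computed from the counts with these factors. The SE of a log2 change is its size divided by the square root of the F statistic. Counting intervals are exact 95% intervals, and 3 counts stand for a group at 0 where the other group holds more than 3. The script was tested on simulated counts. Libraries with the same number at a stage deviated together (r = 0.249, 0.355 and 0.161 over 9094 genes), so the numbers were taken to pair the luminal and basal libraries of a mouse. The 12 pairs of groups from different stages, which share no mouse, gave r from -0.277 to 0.164, so that the lactating value is not apart from them. A fit with the replicate block was among the alternatives. For changes between stages within a cell type, its block was a single term for the replicate number, shared by all stages. There it did not stand for a mouse. Nothing in the labels says beyond this how the 2 libraries of a group were drawn, and p-values measure the spread between libraries. The other alternatives were library size alone, library size without 8 milk protein genes, no filter, DESeq2 1.42.0 and leaving out each library.

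All 10 genes are described, but not every value of each gene in every comparison is printed. From each list of other genes, at most the 3 called genes with the largest change in a comparison, with a mean of at least 1 CPM, were open to naming. Not all of these are named, nor are all genes that a count of 5 or fewer refers to. A few further list genes (such as Cdh5, Pkp4, Ctnnb1, Snai2 and Grhl1 where outside this rule) were added after their values were seen. The genes and lists were chosen with earlier results of these data known.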

Additional observations from a re-analysis of the deposited data

Results flagged for a closer look

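In 8 cases the luminal and the basal change between stages differed by edgeR's quasi-likelihood test of the difference itself (luminal minus basal log2 change, adjusted by Benjamini-Hochberg over all genes tested). From virgin to pregnant these were Dsp at -3.26 (adjusted p = 4.33e-06), Pkp1 at -2.97 (adjusted p = 1.17e-05) and Perp at -1.91 (adjusted p = 6.19e-06). From pregnant to lactating they were Dsg2 at -1.73 (adjusted p = 2.19e-06), Pkp1 at -1.61 (adjusted p = 0.00488), Jup at -1.06 (adjusted p = 0.000368), Dsp at -1.02 (adjusted p = 0.0138) and Cdh1 at -0.93 (adjusted p = 0.00338). The luminal change was the lower in all 8. From virgin to pregnant this was 3 of 10 genes, against 30.7% of all genes tested, 14% with the luminal change higher and 16.7% lower, a near share. From pregnant to lactating it was 5 of 10, against 36.2%, 18.3% higher and 18% lower. Dsg2 and Perp moved in opposite directions in the 2 layers in the step named, and both directions passed the test.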

How the results depend on the processing

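Over the 5 alternatives that keep all libraries, 520 of 550 log2 changes kept their direction and their side of the threshold, counting as kept those that passed in neither fit. With library size alone, 8 genes were called from pregnant to lactating in luminal cells, and 5 and 8 genes differed between the cell types in the 2 stage changes. Under that scaling alone, 5 log2 values turned their sign and were called: Cdh1 in luminal cells from virgin to pregnant (-0.39), Perp from pregnant to lactating (-0.78) and Cdh3 from virgin to lactating (-1.01) in luminal cells, and basal minus luminal Cdh1 (0.67) and Dsc2 (0.91) in lactation. Under that scaling the all-gene medians of those luminal comparisons were, in the order given, -0.543, -0.851 and -1.505. The cause was not tested. The all-gene median of the basal minus luminal difference in lactation was 1.073 with it and 0.08 with TMM, and 1013 genes were higher and 9583 lower from pregnant to lactating in luminal cells, against 3781 and 3935. With the replicate block, 108 of 110 values were kept, and Cdh1 in lactation (-0.32) and the Dsc2 difference in change were gained. No other call changed. For the stage changes within a cell type this is no check on the pairing by mouse, because the block there was shared by all stages. Leaving out each of the 12 libraries kept 1284 of 1320 values, lost 28 calls, gained 8 and turned 0 called values. The lost calls are given beside their results. Over all alternatives, 42 of 1870 values that passed in neither fit changed sign. Depth limits Dsg3 in all libraries and Dsc3 in luminal libraries, where most counts are below 10.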
